A study of Mus musculus with 4 samples.

Results

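A module of 40 genes that are induced by interferon was followed across 4 sorted myeloid populations of mouse bone marrow. The genes were chosen by name: a list of well-known interferon-induced genes was matched to the platform annotation, and each gene was read from the probe set of its own with the highest mean over the arrays. This list and the further gene lists below were drawn up with earlier results of these data known. Counts over these lists are therefore descriptions and not an independent check. A probe set of its own was found for 37 of the 40 genes, out of 12393 named genes on the array, and 36 of the 37 exceeded the floor on 1 array or more. The floor is a log2 value of 5.18, the 40th percentile of all values. Ifi44, Ddx58 and Isg15 had no probe set annotated to that gene alone, and Iigp1 lay below the floor on each array (3.71 to 4.28).

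Each population was measured on 1 array, so no difference reported here has a replicate check and no test was made. All mice were untreated, 8 weeks old, housed free of specific pathogens and of strain C57BL/6 after at least 10 generations of backcrossing. They carried GFP (green fluorescent protein) inserted at the Gfi1 locus, GFP:Gfi1, so that fluorescence follows the activity of Gfi1, a zinc finger protein that represses transcription in developing blood cells. Gfi1-deficient monocytes were CD11b+, Gr1-low cells of GFP:Gfi1 KI/KI mice, with both alleles replaced, and are called KI/KI monocytes from here on. They came with no stated GFP gate. GFP-high and GFP-low monocytes were the CD11b+, Gr1-low fractions of GFP:Gfi1 KI/WT mice with high and low fluorescence, and granulocytes were CD11b+, Gr1-high cells of KI/WT mice. The control populations therefore have 1 working Gfi1 allele and are not wild type. The study asked how Gfi1 bears on whether a myeloid precursor becomes a monocyte or a granulocyte. The labels do not say whether animals were pooled.

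Interferons are secreted proteins, and cells release type I interferons on sensing signs of infection such as viral or bacterial nucleic acids. Type I interferons act through the receptor Ifnar1/Ifnar2 and a transcription factor complex with Stat2 and Irf9, which binds a short promoter sequence called the interferon-stimulated response element (ISRE). Interferon-gamma acts through the receptor Ifngr1/Ifngr2 and a promoter sequence called the gamma-activated site (GAS). The genes switched on encode proteins that cut or hold back foreign RNA, attack the vacuoles of intracellular pathogens, sense nucleic acids or adjust the signal itself. Myeloid cells, monocytes among them, keep part of this program at a basal level without infection.

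Stretches of 6 promoters are printed because they hold the ISRE letters and belong to the genes with such letters that read lowest in KI/KI relative to GFP-low monocytes. They are RefSeq sequences of the mouse assembly GRCm38.p6, lie upstream of the annotated start and run 5' to 3' in the direction of the gene. Capitals mark each match to the ISRE letters, which are GAAA, any 2 bases and GAAA again, on either strand. The stretches are Ifit3 at chr19:34583343-34583446 (plus strand), Rsad2 at chr12:26456533-26456602 (minus strand), Cxcl10 at chr5:92349063-92349132 (minus strand), Ifit1 at chr19:34640755-34640843 (plus strand), Oas3 at chr5:120777695-120777764 (minus strand) and Oas1a at chr5:120907526-120907575 (minus strand).
Ifit3: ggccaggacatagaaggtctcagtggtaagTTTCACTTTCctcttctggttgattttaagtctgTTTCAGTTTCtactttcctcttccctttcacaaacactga
Rsad2: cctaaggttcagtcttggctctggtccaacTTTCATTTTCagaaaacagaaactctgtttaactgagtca
Cxcl10: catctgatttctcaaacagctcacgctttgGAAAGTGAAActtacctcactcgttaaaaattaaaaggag
Ifit1: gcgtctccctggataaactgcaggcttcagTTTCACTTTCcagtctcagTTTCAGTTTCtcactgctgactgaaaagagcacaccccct
Oas3: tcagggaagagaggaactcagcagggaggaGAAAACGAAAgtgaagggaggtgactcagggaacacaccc
Oas1a: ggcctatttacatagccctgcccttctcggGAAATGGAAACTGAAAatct

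In Ifit1 and Ifit3 the motif stands there 2 times, and in Oas1a 2 matches overlap. Promoter windows were given for 29 of the 40 genes. In the 250 bases before the start, 13 of these 29 genes (44.8%) held the ISRE letters in at least 1 window, against 936 of all 27025 genes with a window (3.46%). For the GAS letters, TTCNNNGAA on either strand, it was 7 of 29 (24.1%) against 2197 of 27025 (8.13%). The ISRE letters were present in Gbp2 and Gbp3, Igtp and Irgm1, Isg15, Stat2 and Bst2 besides the 6 genes printed. The windows of Oasl1, Oasl2, Ifih1 and Ifi209 did not hold them, which says nothing about elements elsewhere or with other letters. Of the measured genes with the ISRE letters, 10 of 12 were 2-fold or more below GFP-low monocytes in KI/KI monocytes (median log2 difference -1.62). Of those whose windows lacked them it was 8 of 14 (median -1.18), and of all genes compared 1.27%. The ranges overlapped (-3.42 to -0.01 with the letters, a bound of -4.27 to 1.10 without). The difference between the groups was not tested.

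The 4 arrays had close medians (5.91 to 6.01), and 59.2% to 61.0% of probe sets were above the floor. The marker genes were set against the labels. All 7 measured monocyte markers read 9.82 or higher in KI/KI and 10.13 or higher in GFP-low monocytes. On the GFP-high array all 7 stood 2-fold or more below GFP-low monocytes (median log2 difference -4.07), and 7 of 10 neutrophil markers 2-fold or more above, so that population is called monocytes here by its label and sort alone. Transcripts tied to sex set the KI/KI array apart. Xist, which coats the silenced X chromosome, read 5.80 there against 9.56 to 10.93 on the other arrays, and the Y-linked Eif2s3y read 8.31 against values below the floor. Sex, genotype and the lack of a stated GFP gate cannot be told apart in any comparison with KI/KI monocytes.

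**Figure D1:**
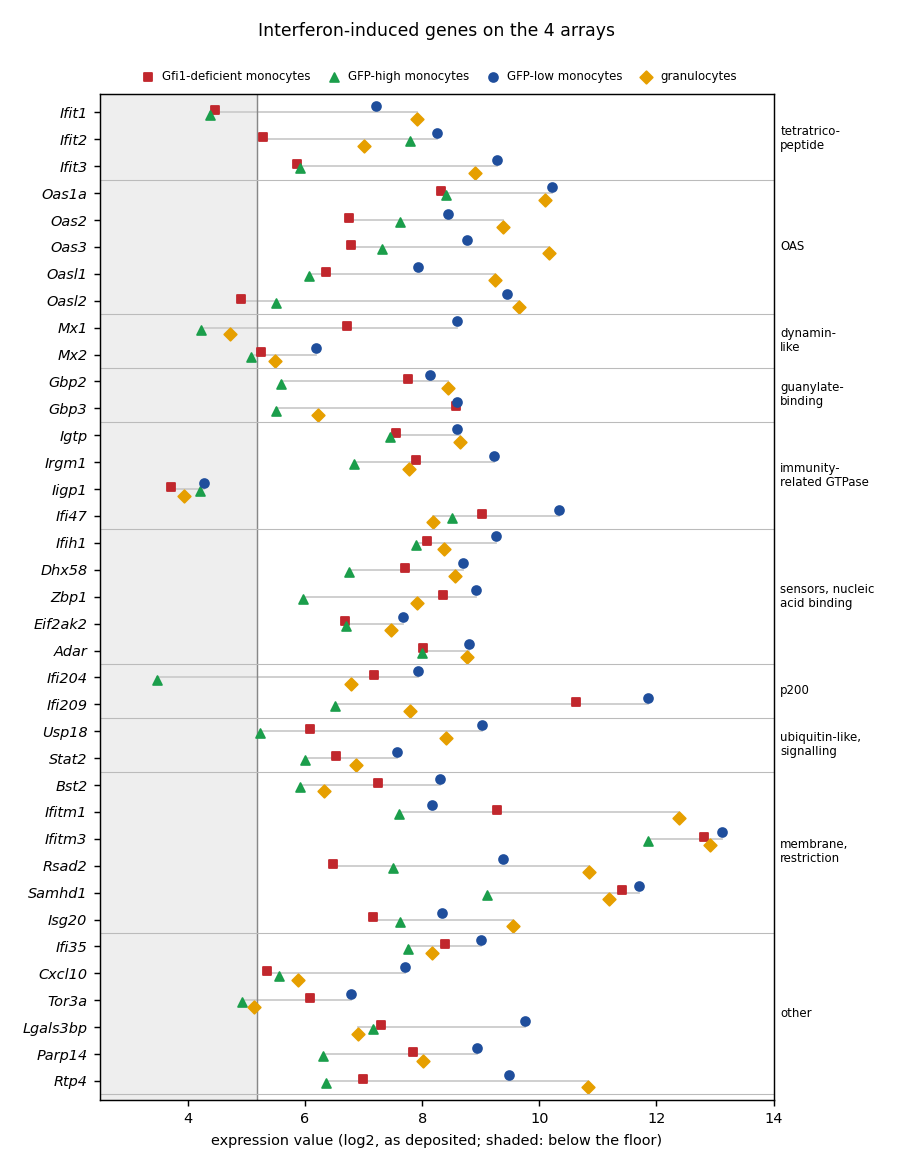
Log2 value (horizontal axis, as deposited) of each interferon-induced gene with a probe set of its own (rows, grouped by family) on the 4 arrays. Points are single arrays and the shaded band lies below the floor of 5.18. For 25 of the 36 genes above the floor the highest point is that of GFP-low monocytes, and for the other 11 that of granulocytes. The same count was not made over all genes.

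The module was highest in GFP-low monocytes or granulocytes throughout. Of the 36 genes above the floor, 25 had their highest value in GFP-low monocytes and 11 in granulocytes, and none had it in KI/KI or GFP-high monocytes. The lowest value was in GFP-high monocytes for 21 genes, in KI/KI monocytes for 10 and in granulocytes for 2 (Ifi47 and Lgals3bp), while 3 genes were below the floor on more than 1 array. Highest and lowest arrays were not counted over all genes, so these counts have no share to be read against. Some gaps behind these ranks are small: Gbp3 in GFP-low and KI/KI monocytes and Adar in GFP-low monocytes and granulocytes differed by 0.01 and 0.02, and the sign of both turned when each array was centred on its median. Lowest ranks in KI/KI monocytes also rest in part on small differences from GFP-high monocytes: -0.02 for Eif2ak2, -0.05 for Ifit3 and -0.10 for Oas1a. The median over the 37 genes was 8.70 in GFP-low monocytes, 8.19 in granulocytes, 7.18 in KI/KI and 6.51 in GFP-high monocytes.

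KI/KI monocytes read lower than GFP-low monocytes for 35 of the 36 genes, of which Gbp3 (-0.01) turned to 0.03 when each array was centred on its median. At least 2-fold lower were 23 of 36 (63.9%), against 1.27% of the 8010 genes compared, and at least 2-fold higher was 1 of 36, Ifitm1, against 0.637%. The median log2 difference was -1.18 for the module and 0.03 for all genes. The 23 make up 22.5% of all 102 genes at least 2-fold lower, and 9 stand among the 23 genes at least 4-fold lower. As a measure of error, the log2 differences of separate probe sets of a gene scattered with an SD of 0.18 in this comparison (2981 genes), which covers disagreement between probe sets and not between animals. Just past the 2-fold line were Igtp and Stat2 (both -1.04), and just short of it Eif2ak2 and Dhx58 (both -0.99) and Mx2 (-0.94).

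**Figure D2:**
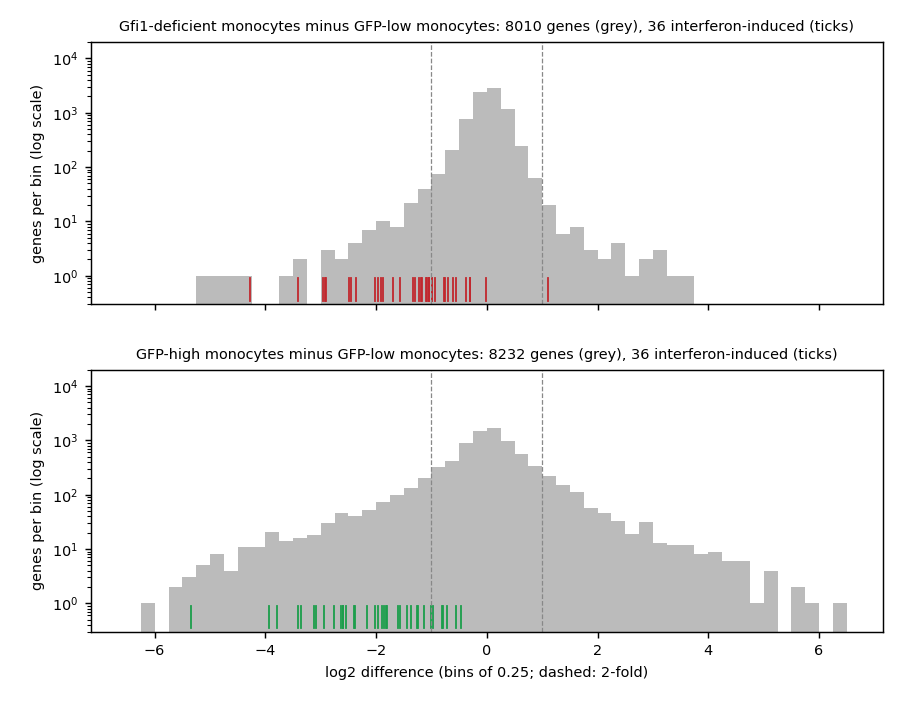
Number of genes (vertical axis, log scale) by log2 difference from GFP-low monocytes (horizontal axis), for KI/KI (Gfi1-deficient) monocytes above and GFP-high monocytes below. Ticks are the 36 interferon-induced genes. In the upper panel 23 ticks lie past the 2-fold line on the left, where 102 of 8010 genes lie, and in the lower panel 30 ticks, where 791 of 8232 lie.

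Of the tetratricopeptide genes Ifit1, Ifit2 and Ifit3, Ifit1 encodes a protein that binds viral RNA lacking the host's cap marks. All 3 were 2-fold or more below GFP-low monocytes in KI/KI monocytes, with a median log2 difference of -2.97, which was -1.44 with the floor at the 60th percentile. Ifit3 read 5.86 in KI/KI, 5.91 in GFP-high and 9.28 in GFP-low monocytes and 8.90 in granulocytes. Its values thus fell into a low pair and a high pair, and KI/KI monocytes were 10.7-fold below GFP-low monocytes. Ifit1 followed the same split, with 4.46 in KI/KI and 4.37 in GFP-high monocytes, both below the floor, against 7.21 in GFP-low monocytes and 7.92 in granulocytes. Ifit2 did not: it read 5.28 in KI/KI monocytes but 7.79 in GFP-high monocytes, 8.25 in GFP-low monocytes and 7.01 in granulocytes. The KI/KI array was the lowest for Ifit2, 7.82-fold below GFP-low and 5.68-fold below GFP-high monocytes, and granulocytes stood 2.36-fold below GFP-low monocytes.

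Genes of the oligoadenylate synthetase (OAS) family encode enzymes that answer double-stranded RNA by making the activator of RNase L, or relatives without that activity such as Oasl1. All 5 were 2-fold or more below GFP-low monocytes in KI/KI monocytes (median -1.91, from a bound of -4.27 to -1.57). Oasl2 read 4.91 in KI/KI monocytes, below the floor, 5.51 in GFP-high and 9.45 in GFP-low monocytes and 9.66 in granulocytes. This at least 19.3-fold gap was the widest of the module in the comparison. Oas1a, a synthetase, read 8.32, 8.41, 10.22 and 10.09 in the same order of arrays. Oas3, the long form of the synthetase, read 6.79, 7.32, 8.76 and 10.17. Both KI/KI and GFP-high values were low for these genes, and Oas3 differed from Oas1a in that granulocytes stood above GFP-low monocytes, by 2.65-fold. Oas2 read 6.75 in KI/KI, 7.63 in GFP-high and 8.44 in GFP-low monocytes and 9.38 in granulocytes. Oasl1, which represses translation of the interferon regulator Irf7, read 6.36, 6.08, 7.94 and 9.25 in that order. Across the family KI/KI and GFP-high monocytes were within 2-fold of each other (-0.87 to 0.29), where the value of Oasl2 is a bound, and granulocytes were at least 2-fold above both for all 5.

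The GTPases of the module belong to 3 families and did not share 1 pattern. Mx1 and Mx2 are dynamin-like proteins that trap viral components, and C57BL/6 is known to carry a defective Mx1 allele, so its transcript level does not speak of a working protein. Mx1 read 6.71 in KI/KI, 4.22 in GFP-high and 8.59 in GFP-low monocytes and 4.72 in granulocytes. KI/KI monocytes stood 3.69-fold below GFP-low monocytes for Mx1, and GFP-high monocytes and granulocytes each at least 10.7-fold below. Mx2 read 5.26, 5.08, 6.19 and 5.48 in that order, with its GFP-high value below the floor and all others within 1.02 of it.

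Gbp2 and Gbp3 encode guanylate-binding proteins, which attack pathogen membranes and are typical targets of interferon-gamma. They were the 2 GTPases with the least difference between KI/KI and GFP-low monocytes. Gbp3 read 8.58 in KI/KI and 8.59 in GFP-low monocytes, while GFP-high monocytes read 5.51 and granulocytes 6.23. Gbp2 read 7.76 in KI/KI, 5.59 in GFP-high and 8.14 in GFP-low monocytes and 8.45 in granulocytes. The GFP-high array was the lowest for both genes, 8.44-fold below GFP-low monocytes for Gbp3 and 5.85-fold for Gbp2. Granulocytes were also low for Gbp3, by 5.14-fold, and not for Gbp2.

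Immunity-related GTPases act on vacuoles that hold intracellular pathogens. Igtp, Irgm1 and Ifi47 were each 2-fold or more below GFP-low monocytes in KI/KI monocytes (-1.04, -1.34 and -1.30), and GFP-high monocytes also stood below the same line (-1.14, -2.39 and -1.82). Irgm1 read 7.89 in KI/KI, 6.84 in GFP-high and 9.23 in GFP-low monocytes and 7.78 in granulocytes. Ifi47 read 9.03, 8.51, 10.33 and 8.19, and Igtp 7.55, 7.45, 8.60 and 8.65. GFP-low monocytes were alone at the top for Irgm1 and Ifi47 and level with granulocytes for Igtp.

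The sensors and nucleic acid binding proteins showed smaller differences in KI/KI monocytes than the tetratricopeptide and OAS genes, though not than the guanylate-binding genes. Ifih1, which encodes the RNA sensor MDA5, was the 1 gene of 5 measured that passed 2-fold, and the median was -0.99. It read 8.08 in KI/KI, 7.90 in GFP-high and 9.26 in GFP-low monocytes and 8.37 in granulocytes. Dhx58, a helicase that regulates such sensors, read 7.71, 6.74, 8.70 and 8.57 in that order. Zbp1, a sensor of Z-form nucleic acids that can trigger cell death, read 8.35, 5.97, 8.91 and 7.91. KI/KI monocytes lay near GFP-low monocytes for Zbp1 (1.47-fold lower), while GFP-high monocytes were 7.68-fold lower. Eif2ak2, the kinase PKR that stops translation on double-stranded RNA, read 6.68, 6.70, 7.67 and 7.47, and the RNA-editing enzyme gene Adar read 8.02, 8.00, 8.79 and 8.77. Both kept to the split of Oas1a at a smaller size, with KI/KI and GFP-high monocytes within 0.02 of each other, although a second probe set of Eif2ak2 put KI/KI monocytes 0.43 above GFP-high monocytes.

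The p200 genes encode DNA-binding proteins of the nucleus and cytosol. Ifi209 read 10.63 in KI/KI, 6.51 in GFP-high and 11.86 in GFP-low monocytes and 7.79 in granulocytes. Its 2.34-fold lower level in KI/KI than in GFP-low monocytes stood beside a 40.5-fold lower level in GFP-high monocytes and a 16.7-fold lower one in granulocytes. Ifi204 read 7.18, 3.46, 7.94 and 6.78 in the same order and was 1.69-fold lower in KI/KI than in GFP-low monocytes. A probe set shared by Ifi204, Ifi205, Ifi211 and Mndal, and so not used to name a gene, read 9.68, 5.47, 10.84 and 7.37. Both p200 genes thus stood 2-fold or more above GFP-high monocytes in KI/KI monocytes, Ifi209 by 17.4-fold and Ifi204 by a bound with its GFP-high value below the floor. No OAS gene did.

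Usp18, the protease that removes Isg15 from proteins and restrains the type I receptor, read 6.08 in KI/KI, 5.23 in GFP-high and 9.01 in GFP-low monocytes and 8.41 in granulocytes, and was 7.62-fold lower in KI/KI than in GFP-low monocytes. Isg15 itself, a ubiquitin-like protein, was covered by a probe set annotated to it together with Gm9706, which read 5.54, 5.69, 7.56 and 8.08. Stat2, the signalling factor of type I interferon, read 6.53, 6.00, 7.57 and 6.87. Usp18 and the shared Isg15 probe set showed the low pair and high pair of Ifit3, and Stat2 was highest in GFP-low monocytes with granulocytes 1.62-fold below.

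The membrane and restriction factors differed among themselves. Rsad2 encodes viperin, an enzyme that makes a chain-terminating nucleotide. It read 6.49 in KI/KI, 7.50 in GFP-high and 9.39 in GFP-low monocytes and 10.85 in granulocytes, with KI/KI monocytes 7.47-fold below GFP-low monocytes and 20.6-fold below granulocytes. Isg20, an exonuclease gene, read 7.16, 7.62, 8.34 and 9.55 and had the same order of arrays. Bst2, which encodes tetherin, a protein that holds budding virus at the cell surface, read 7.24, 5.91, 8.31 and 6.32. Samhd1, an enzyme that depletes nucleotides needed by viruses, read 11.41, 9.10, 11.71 and 11.18, so that only GFP-high monocytes stood low, by 6.08-fold.

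Ifitm1 and Ifitm3 encode related proteins that hinder the entry of viruses. Ifitm1 read 9.28 in KI/KI, 7.61 in GFP-high and 8.17 in GFP-low monocytes and 12.38 in granulocytes. It was the 1 gene of the module higher in KI/KI than in GFP-low monocytes, by 2.15-fold, and it was 18.5-fold higher in granulocytes than in GFP-low monocytes. Ifitm3 read 12.82, 11.86, 13.13 and 12.91 and was 1.24-fold lower in KI/KI than in GFP-low monocytes.

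Of the remaining genes, 4 were 2-fold or more below GFP-low monocytes in KI/KI monocytes. Rtp4, a chaperone of receptor proteins, read 6.99 in KI/KI, 6.36 in GFP-high and 9.48 in GFP-low monocytes and 10.83 in granulocytes. Lgals3bp, a secreted galectin-binding protein, read 7.30, 7.15, 9.76 and 6.90 in that order, and the chemokine gene Cxcl10, whose product attracts T cells, read 5.34, 5.55, 7.71 and 5.87. GFP-low monocytes alone were high for Lgals3bp and Cxcl10, by 5.47-fold and 5.15-fold over KI/KI monocytes. Parp14, an ADP-ribosyltransferase gene, read 7.85, 6.30, 8.94 and 8.01. Ifi35 (8.39, 7.76, 9.01 and 8.17) and Tor3a (6.08, 4.92, 6.78 and 5.13) differed by less than 2-fold between KI/KI and GFP-low monocytes.

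Among the 20 genes with the largest shortfall in KI/KI against GFP-low monocytes, 8 were members: Oasl2, Ifit3, Ifit2, Usp18, Rsad2, Rtp4, Lgals3bp and Cxcl10. A ninth, Ifi27l2a at -2.14, is a further interferon-induced gene. The other 11 were the neutrophil granule genes Camp, Ltf, Ngp and Mmp9, the integrin gene Itgb2l, Xist, the immunoglobulin gene Igha, and Rabgap1l, Hpgd, Slamf8 and Adam19. Camp, Ltf, Ngp and Mmp9 thus read lower on the same array, but not all neutrophil granule genes did. At least 2-fold lower there were 5 of 10 neutrophil markers (Camp at -5.04). Mpo and Elane stood 2-fold or more above GFP-low monocytes (3.34 and 2.44), and Mmp8 was at 0.71. Of 4 measured eosinophil markers, 3 stood 2-fold or more above GFP-low monocytes (median 2.23). Markers of other cells also differed. In the list of conventional dendritic cell and MHC class II genes, 4 of 6 measured were 2-fold or more below GFP-low monocytes in KI/KI monocytes (median -1.87), namely Cd74, H2-Aa, H2-Ab1 and H2-Eb1, while Flt3 was at -0.22. Igha, of plasma cells, read 7.33 in KI/KI against 10.61 in GFP-low monocytes, and Ighm 11.21 against 11.30. Of the list for plasmacytoid dendritic cells, the chief producers of type I interferon, Ccr9 and Klk1 were below the floor on each array. All 4 measured genes of that list read lower in KI/KI than in GFP-low monocytes. Tcf4 was at -0.38, and Bst2, a member here, was the 1 gene seen past 2-fold. Ly6d and Spib fell below the floor in KI/KI monocytes and have only bounds (-0.45 and -0.29). Both measured B cell markers also read lower, by less than 2-fold (median -0.92). Monocyte markers were level between these arrays (0 of 7 past 2-fold, median -0.03, with Cx3cr1 lowest at -0.96). All 4 measured markers of patrolling monocytes read lower in KI/KI monocytes (median -0.80), 1 of them past 2-fold, Ace at -1.43. The part of other cells in the interferon difference was not tested, and in sorted bulk RNA fewer cells of a type and less RNA per cell cannot be told apart.

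GFP-high monocytes, of the same genotype and Gr1 gate as GFP-low monocytes, read lower for all 36 genes. At least 2-fold lower were 30 of 36 (83.3%), against 9.61% of 8232 genes, and none was at least 2-fold higher, against 9.03%. The median was -1.92 for the module and 0.03 for all genes, with an SD between probe sets of 0.32. Because this comparison and the one above share the GFP-low array, their values are set side by side and not correlated. The widest gaps were Ifi209 (-5.34), Oasl2 (-3.94), Usp18 (-3.78), Mx1 (a bound of -3.42) and Ifit3 (-3.37). Under 2-fold were Ifit2 (-0.46), Ifitm1 (-0.57), Isg20 (-0.73), Adar (-0.80), Oas2 (-0.82) and Eif2ak2 (-0.97). Family medians ran from -4.05 for p200 and -2.81 for guanylate-binding genes to -1.81 for OAS and -1.36 for sensors, where KI/KI monocytes had -0.99, -0.19, -1.91 and -0.99. The p200 and guanylate-binding medians each rest on 2 genes, with Ifi204 a bound. Under a 60th percentile floor they were -3.09 and -1.56, and the p200 median was -5.36 with probe sets of several genes added. The monocyte markers, lower on the GFP-high array by the median of -4.07 given above, stood beside this difference. So did 4 of 4 measured eosinophil markers (at least 2-fold higher, median 4.20) and 4 of 7 macrophage markers (median 1.09), which ranged from Adgre1 at -2.42 to Vcam1 at 4.59. Of the dendritic cell and MHC class II list, 4 of 6 measured genes were 2-fold or more below GFP-low monocytes (median -3.46). Their part in it was not tested.

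**Figure D3:**
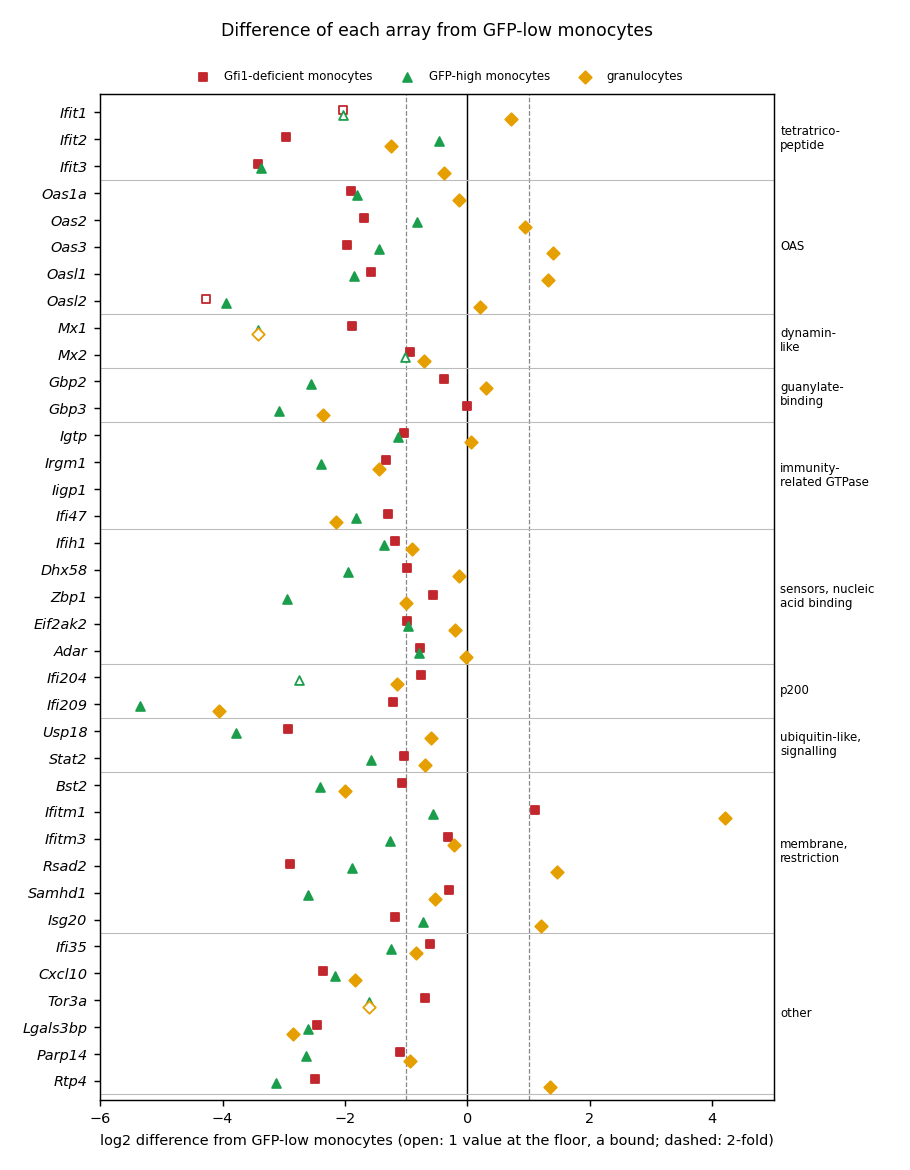
Log2 difference from GFP-low monocytes (horizontal axis) of KI/KI (Gfi1-deficient) monocytes, GFP-high monocytes and granulocytes for each interferon-induced gene (rows). Open symbols are bounds with 1 value at the floor, and dashed lines mark 2-fold. Squares lie left of 0 for 35 of 36 genes and triangles for 36 of 36, whereas diamonds range from -4.06 for Ifi209 to 4.21 for Ifitm1.

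Of 35 genes above the floor in KI/KI monocytes, GFP-high monocytes or both, 11 were at least 2-fold higher in KI/KI monocytes (31.4%, against 9.53% of 8195 genes) and 2 lower (5.71%, against 7.81%), with a median of 0.53 and an SD between probe sets of 0.32. The 11 were Ifi209 (4.12), Gbp3 (3.07), Zbp1 (2.38), Samhd1 (2.31), Gbp2 (2.17), Ifi204 (a bound), Ifitm1 (1.67), Parp14 (1.55), Mx1 (a bound of 1.53), Bst2 (1.33) and Irgm1 (1.05). Those at least 2-fold lower were Ifit2 (-2.51) and Rsad2 (-1.01, and -0.57 and -0.49 by its other probe sets). All 7 measured GTPases were on the higher side (median 1.05, from a bound of 0.08 for Mx2 to 3.07), as were both p200 genes, and 4 of 5 OAS genes were on the lower side (median -0.33, close to the SD between probe sets). The ranges of the families overlapped, with Igtp at 0.10 and Oasl1 at 0.29, and the difference between families was not tested. The monocyte markers were at least 2-fold higher in KI/KI than in GFP-high monocytes for 7 of 7 (median 4.04), and their part in these differences was not tested.

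Granulocytes and GFP-low monocytes had the higher medians of the module but differed from each other in part of it. At least 2-fold lower in granulocytes were 11 of 36 genes (30.6%, against 18.2% of 8503 genes), at least 2-fold higher 6 of 36 (16.7%, against 10.0%), and the remaining 19 were within 2-fold. Both shares past 2-fold exceeded those of all genes, so a smaller share of the module than of all genes lay within 2-fold. The median was -0.56, against 0.00 for all genes, and the SD between probe sets 0.38. On the higher side were Ifitm1 (4.21), Rsad2 (1.46), Oas3 (1.41), Rtp4 (1.35), Oasl1 (1.31) and Isg20 (1.21). On the lower side were Ifi209 (-4.06), Mx1 (a bound of -3.42), Lgals3bp (-2.85), Gbp3 (-2.36), Ifi47 (-2.14), Bst2 (-1.99), Cxcl10 (-1.84), Tor3a (a bound of -1.60), Irgm1 (-1.45), Ifit2 (-1.24) and Ifi204 (-1.16). The OAS family had a median of 0.93, with Oas1a and Oasl2 nearly level (-0.13 and 0.21), and immunity-related GTPases and p200 genes had medians of -1.45 and -2.61.

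Against the other arrays granulocytes read higher. Compared with GFP-high monocytes, 21 of 34 measured genes stood 2-fold or more above in granulocytes (61.8%, against 8.93% of 8457 genes) and none lower (against 16.4%), with a median of 1.64 and an SD between probe sets of 0.35. Ifitm1 (27.4-fold), Rtp4 (22.2-fold), Oasl2 (17.7-fold) and Rsad2 (10.2-fold) led. Compared with KI/KI monocytes, 14 of 36 were at least 2-fold higher in granulocytes (38.9%, against 11.2% of 8520 genes) and 3 lower (8.33%, against 20.3%), with a median of 0.61 and an SD of 0.43. Higher in granulocytes were all 3 tetratricopeptide and all 5 OAS genes (medians 2.74, a bound, and 2.88), Oasl2 by at least 22.3-fold. Those lower in granulocytes were Ifi209 (-2.84), Gbp3 (-2.35) and Mx1 (a bound of -1.53).

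Further probe sets of the same genes gave a check within each array. Of the 37 genes, 26 had 1 probe set of their own and 11 had 2 to 4. Where a further probe set could be compared between KI/KI and GFP-low monocytes, 12 of 12 had the sign of the one used, with a median gap of 0.23 and a largest gap of 0.78. The 3 probe sets of Rsad2 gave -2.12 (a bound), -2.36 and -2.90, and those of Stat2 -1.35 and -1.04. Between GFP-high and GFP-low monocytes the sign was shared by 12 of 12, and between granulocytes and GFP-low monocytes by 10 of 13. The exceptions were the other 3 probe sets of Samhd1, which read 0.39 to 0.63 higher in granulocytes where the one used read 0.52 lower on the log2 scale. A second probe set of Rtp4 read 3.46 to 5.25, near or below the floor, and gave no such gap.

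The genes that make, receive and pass on the interferon signal were read from a list of 41, of which 27 could be compared between KI/KI and GFP-low monocytes. There 1 of 27 (3.70%) was at least 2-fold lower, against 1.27% of all genes, and 1 higher, against 0.637%, with a median of -0.05. The lower one was Irf7, the factor that amplifies type I interferon production and is itself interferon-induced, which read 7.89 in KI/KI, 6.92 in GFP-high and 9.80 in GFP-low monocytes and 9.37 in granulocytes. The higher one was Socs3, a feedback inhibitor of cytokine receptors, which read 8.68, 5.79, 7.58 and 9.35. Irf9, the DNA-binding partner of Stat2, read 9.05, 8.17, 9.81 and 9.69, and was 0.76 lower on the log2 scale in KI/KI than in GFP-low monocytes. The 8 ligand genes with a probe set read near or below the floor on each array (3.03 to 5.57). The receptor genes Ifnar1, Ifnar2, Ifngr1 and Ifngr2 differed by 0.03 to -0.36 between KI/KI and GFP-low monocytes, and each passed 2-fold in GFP-high monocytes, on the lower side (-1.30, -1.06, -1.14 and -1.94).

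**Figure D4:**
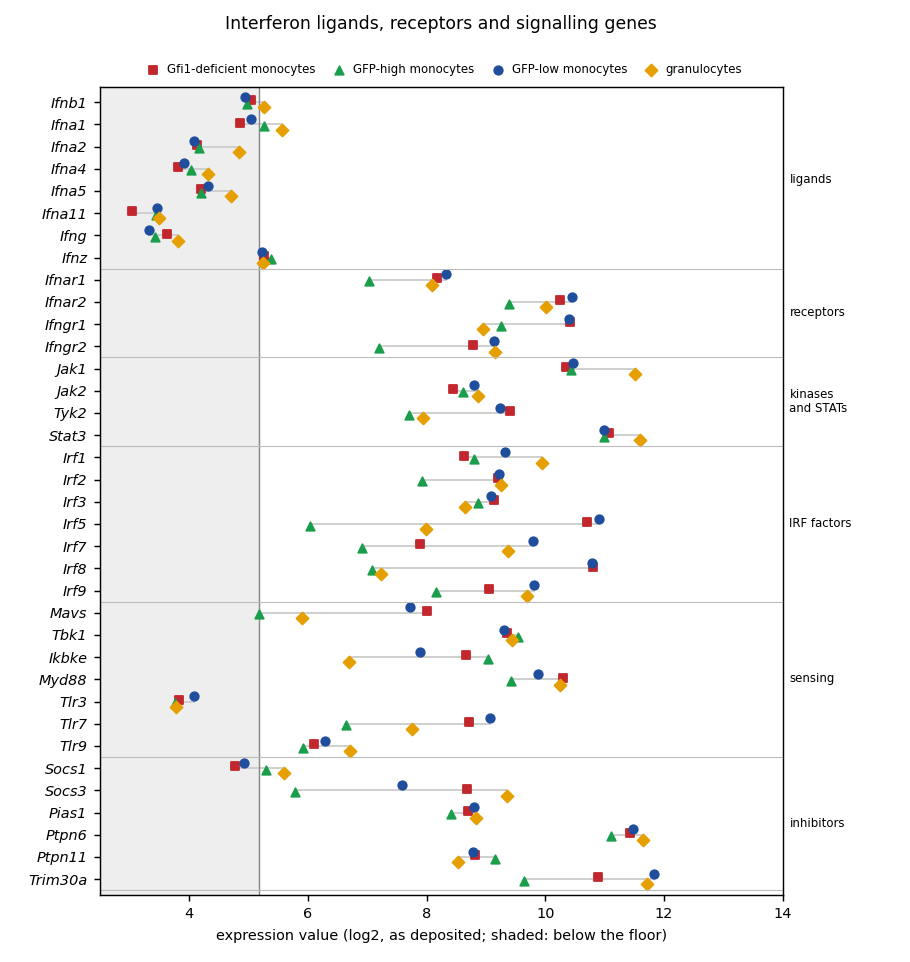
Log2 value (horizontal axis) of interferon ligands, receptors, signalling genes and inhibitors (rows) on the 4 arrays, with the band below the floor shaded. Receptor genes are lowest in GFP-high monocytes for Ifnar1, Ifnar2 and Ifngr2, and the ligand genes lie near or below 5.18 throughout.

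In GFP-high against GFP-low monocytes, 14 of 29 pathway genes (48.3%) were at least 2-fold lower, against 9.61% of all genes, and 1 (3.45%) higher, against 9.03%. Irf5 (-4.88) and Irf8 (-3.71), transcription factors of myeloid cells, led on the lower side, and the kinase gene Ikbke (1.14) was the higher one. In granulocytes against GFP-low monocytes 7 of 30 (23.3%) were at least 2-fold lower, near the 18.2% of all genes, with Irf8 (-3.57) and Irf5 (-2.92) first. On the higher side were 2 of 30 (6.67%, against 10.0%), Socs3 (1.77) and the receptor-associated kinase gene Jak1 (1.04). In granulocytes against GFP-high monocytes 11 of 30 (36.7%, against 8.93%) were at least 2-fold higher, led by Socs3 (3.56), and 1 (3.33%, against 16.4%) lower, Ikbke (-2.33). Among 30 further interferon-induced genes outside the module, 18 could be compared between KI/KI and GFP-low monocytes, and all 18 read lower, 5 of them at least 2-fold (27.8%, against 1.27%), with a median of -0.73. These 5 were Ifi27l2a (-2.14), Slfn8 (-1.50), Slfn4 (-1.39), Irgm2 (-1.14) and Cmpk2 (-1.11). In GFP-high monocytes 9 of 18, against 9.61% of all genes, were at least 2-fold lower, led by Ms4a4c (-5.68), Ifi27l2a (-4.98) and Slfn8 (-2.91), and Slfn4 was higher (1.78). Ms4a4c, level between KI/KI and GFP-low monocytes (-0.13), was low in GFP-high monocytes and granulocytes as Gbp3 was, and Slfn4 read highest in granulocytes (12.52).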

How the data were processed

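The deposited table holds 1 log2 value for each of 22690 probe sets on 4 arrays. The log2 scale is inferred from the range (2.70 to 14.50), and how the authors corrected, summarised and normalized the values is not given in the sources used here. Per the labels' protocols, 6 µg of total RNA was isolated with TRIzol and labelled by the standard Affymetrix protocol. A common distribution would hide a shift of most genes in 1 direction. Arrays have no depth, and their number limits the precision.

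Gene names came from the annotation given for the platform, which can be old, and were checked through gene identifiers to GRCm38.p6: 20393 had 1 gene, 691 several and 1606 none. A gene took its own probe set with the highest mean. Values below the 40th percentile (5.18) were set to it, giving bounds, and no difference where both lay below. With 1 array a group no test was made, and genes were counted at 2-fold.

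Members and lists were chosen with earlier results of these data known. Named were all members, with values where measured, and the 20 largest shortfalls. Of the pathway and further lists, only some of the largest differences were named, and not in each comparison. Other genes outside the module were named after their values were seen. Alternatives changed the floor, normalization, probe set and fold rule. The steps were tested on simulated data. Python 3.11.15, numpy 2.4.6 and pandas 2.3.3 were used.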

Additional observations from a re-analysis of the deposited data

How the results depend on the processing

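Centring each array on its median, quantile normalization, leaving out cross-hybridising (_x_at) probe sets and adding probe sets of several genes left all 18 counts and medians of the module within 1.5 times or the SD between probe sets of the reported value, and no median of the whole module turned its sign under any alternative. Among single genes, differences of 0.12 or less on the log2 scale turned for Adar, Irgm1, Gbp3 and Eif2ak2 under centring, quantile normalization or the mean of probe sets, and with that mean Samhd1 read 0.25 higher in granulocytes than in GFP-low monocytes and 0.76 higher than in KI/KI monocytes. With the floor at the 20th percentile or none, the median of granulocytes minus GFP-high monocytes was 1.28. With the floor at the 60th percentile it was 1.20, the median of GFP-high minus GFP-low monocytes was -1.48, and of the genes compared between KI/KI and GFP-high monocytes 7 were 2-fold higher in the former and 0 lower. A stricter floor leaves fewer genes. Family medians moved there too: the tetratricopeptide median was -1.44 in KI/KI and -0.46 in GFP-high minus GFP-low monocytes (-2.97 and -2.03 by the main floor). In the latter the guanylate-binding median was -1.56 and the p200 median -3.09. Among family medians and single genes, 75 values moved by more than the SD between probe sets at that floor and 169 did not, against 22 and 251 with the 20th percentile. With the mean of a gene's probe sets, 1 gene was lower in KI/KI than in GFP-high monocytes.

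Under a 4-fold rule, 9 of 36 genes were below GFP-low monocytes in KI/KI monocytes (23 of 8010 over all genes), and 0 above. In GFP-high monocytes 17 of 36 were below (282 of 8232), and in granulocytes 5 of 36 (378 of 8503) with 1 above. Granulocytes had 11 of 34 above GFP-high monocytes, and KI/KI monocytes had 5 of 35 above and 1 below them (197 of 8195 below). Under a 1.5-fold rule, granulocytes had 18 of 36 below GFP-low, 1 of 34 below GFP-high and 6 of 36 below KI/KI monocytes. KI/KI monocytes had 17 of 35 above GFP-high monocytes. All genes were not counted for 4-fold rises or the 1.5-fold rule, so those counts show only how the rule moves the module's numbers. No paired analysis was possible because each group has 1 array, and for the same reason no replicate could be left out. Genes near background on an array have only a bound there.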
